A study of Bos taurus with 6 samples.

Results

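Collagens were taken from the deposited gene table as the rows whose gene name, or symbol where no name was given, starts with COL, a number and A. The rule caught 43 rows. COL4A3BP carries these letters but encodes a ceramide transfer protein and no collagen chain, so it was set aside, which left 42 collagen genes of the 21972 genes in the table. They were sorted by the structure that their chains build into 11 fibrillar, 9 basement membrane, 4 microfibrillar and 18 other collagens. The tissue was longissimus dorsi, a muscle of the back and loin, from 3 males of the Japanese black (Wagyu) breed, called WC616, WC719 and WC921, and 3 of the Chinese Red Steppes breed, called RC4, RC5 and RC6. At 28 months of age each gave 1 poly(A) RNA library, and no treatment is described. The animals of a breed shared a sire and came from a farm of their own, so breed, sire and farm cannot be told apart in any comparison given here. Values are FPKM, reads scaled by the length of the gene model and by the reads counted to genes in the library, which can be compared between genes and, within the limits of that scaling, between libraries.

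Collagens are the main proteins of the connective tissue of muscle. Fibrillar collagens form the ropes of the endomysium, perimysium and epimysium, the type IV network is the scaffold of the basement membrane around each muscle fibre, capillary and nerve, and type VI collagen forms beaded microfilaments that link that membrane to the fibrils. Chains are made in the endoplasmic reticulum, hydroxylated and wound into triple helices, secreted, trimmed and then crosslinked by lysyl oxidases, and in meat the amount and crosslinking of collagen are known to bear on toughness.

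Reads counted to genes ranged from 15438095 in RC6 to 16197141 in WC719, so depth differed little. The muscle fibre markers, 8 genes such as ACTA1 and CKM, summed to between 59994 and 75476 FPKM, so the defining genes of the labelled tissue were high in every library. Their sum was lower in Wagyu, at 59994 to 66718 FPKM against 67441 to 75476 FPKM in Chinese Red Steppes, without overlap. Of these genes, ACTA1 was lower and DES higher in every Wagyu library, and the rest overlapped. RC6 stood apart from the other libraries: 8 slow fibre markers summed to 81081 FPKM in it and to between 25942 and 49013 in the other libraries. Several results that rest on RC6 are therefore also given without it. Where no such value is given, dependence on RC6 remains possible.

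Collagen mRNA was a small part of the muscle transcriptome, and a minority of the chains carried nearly all of it. The 42 genes took 0.318%, 0.201% and 0.287% of the counted reads in WC616, WC719 and WC921 and 0.230%, 0.165% and 0.137% in RC4, RC5 and RC6, with 95% Wilson intervals such as 0.135% to 0.139% in RC6 that cover counting error only. The breeds overlapped in this share. Its mean was 0.269% in Wagyu and 0.177% in Chinese Red Steppes, or 0.198% with RC6 left out. The 16 members that averaged 1 FPKM or more held 98.9% of the summed collagen FPKM, and COL4A1, COL4A2 and COL6A1 alone held 48.5%. COL4A1 was the most abundant collagen mRNA and ranked 734th among all genes by mean FPKM, followed by COL4A2 at 919 and COL6A1 at 1026. COL3A1, the most abundant fibrillar chain, ranked 1188th.

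**Figure D1:**
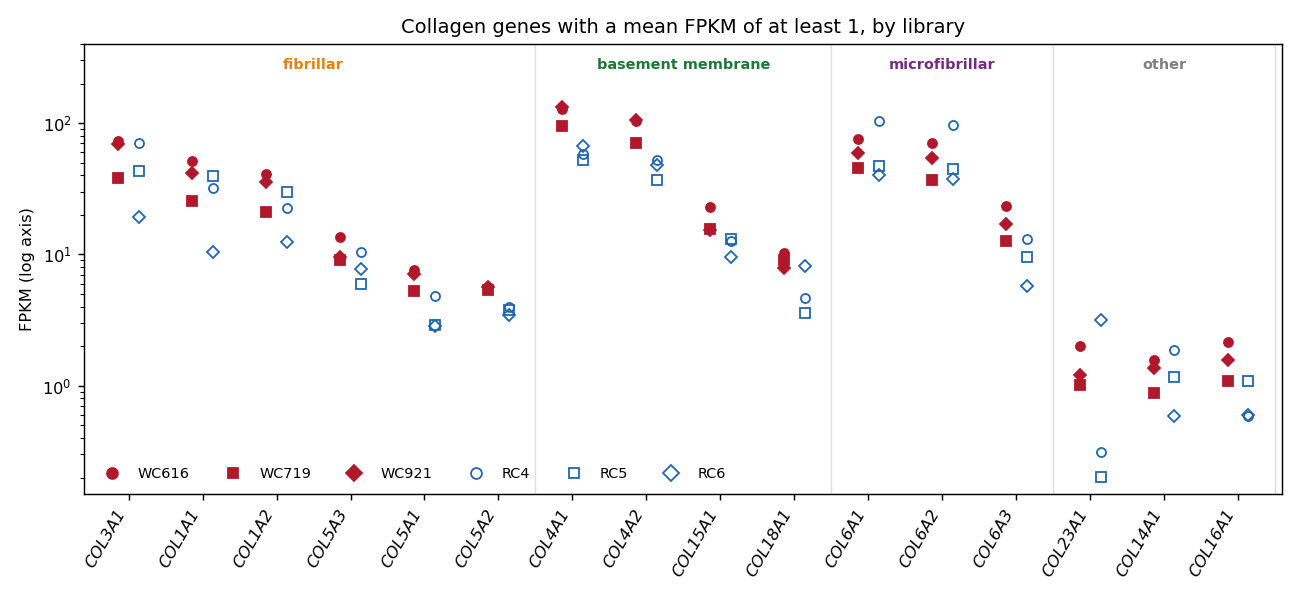
FPKM (log axis) of the 16 collagens averaging 1 FPKM or more in each library, filled red symbols for Wagyu and open blue symbols for Chinese Red Steppes. COL4A1, COL4A2, COL5A1, COL5A2 and COL15A1 lie higher in all 3 Wagyu libraries than in all 3 Chinese Red Steppes libraries, and RC6 holds the lowest value of 9 of the 16 genes.

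The comparison of the breeds asks which collagen mRNAs are more or less abundant in marbled Wagyu muscle. limma on log2(FPKM + 1) was run two-sided, with Benjamini-Hochberg adjustment, on the 9990 genes that averaged 1 FPKM or more. A log2 fold change above 0 means more in Wagyu, and the scale understates the change of low genes. No collagen passed an adjusted p of 0.05 (0 of 16, lowest adjusted p = 0.144), while limma called 2 genes in all, or 0.02% of those tested. At an unadjusted p under 0.05, 8 of the 16 collagens were higher in Wagyu and 0 were lower, and over all tested genes 8.64% were higher and 5.87% lower at that level. The 3 Wagyu values lay above all 3 Chinese Red Steppes values for 5 of the 16 collagens and below them for 0, where 11.4% and 9.16% of all tested genes did so. The log2 fold change was above 0 for 15 of the 16 collagens, with a median of 0.56 against 0.03 over all tested genes, of which 53.7% were above 0. When RC6 was left out, limma put 12 of 15 tested collagens above 0 and 3 below. The median was then 0.42 against 0.04 over all tested genes. COL16A1 passed the filter only through its Wagyu level, and the chains of a molecule and neighbouring genes are not independent of each other, so these counts describe the family and were given no test. COL4A1 and COL4A2, COL6A1 and COL6A2, and COL5A2 and COL3A1 are direct neighbours among the genes of the RefSeq table (assembly ARS-UCD2.0).

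Whole reads could be worked back from the FPKM values and gave a count test beside limma. edgeR called 0 of 27 collagens, and 0.0685% of all genes it tested. DESeq2 called 3 of 30 collagens higher in Wagyu, COL4A1, COL4A2 and COL8A1, and 0 lower, and it called 1.26% of all tested genes higher. With RC6 left out, an alternative chosen after the data were seen, DESeq2 called 4 of 30 collagens higher, COL4A1, COL4A2, COL18A1 and COL23A1, beside 1.21% of all tested genes, and again 0 lower. Over all genes, in both directions, DESeq2 called 237 and edgeR 8.

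Basement membrane collagens had the largest ratio between the breeds among the 4 groups. Their 9 genes summed to 266, 193 and 265 FPKM in libraries WC616, WC719 and WC921 and to 129, 107 and 134 FPKM in RC4, RC5 and RC6. Wagyu averaged 241 ± 41.9 FPKM against 123 ± 14.3 (SD, n = 3 each), a ratio of 1.96, and the breeds did not overlap. Without RC6 the Chinese Red Steppes mean was 118 FPKM.

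COL4A1 and COL4A2 encode the α1 and α2 chains that join in the common type IV molecule of basement membranes, and in human and mouse they lie head to head and share a promoter. COL4A1 stood at 127, 94.7 and 134 FPKM in libraries WC616, WC719 and WC921, against 58.3, 52.2 and 67.0 FPKM in RC4, RC5 and RC6. COL4A2 stood at 104, 71.1 and 106 FPKM in the Wagyu libraries and at 52.0, 36.6 and 47.6 FPKM in the Chinese Red Steppes libraries. WC719 was the lowest Wagyu library for both genes and still lay well above every Chinese Red Steppes library. The log2 fold change was 0.98 (SE 0.17) for COL4A1 and 1.02 (SE 0.21) for COL4A2, the largest of the tested collagens, with adjusted p of 0.144 and 0.156 in limma. DESeq2 gave adjusted p of 0.00215 for COL4A1 and 0.00535 for COL4A2. The DESeq2 call of COL4A1 was lost with WC921 left out (adjusted p = 0.0576) and held with any other library left out. That of COL4A2 was lost with WC616, WC921 or RC5 left out, with adjusted p of up to 0.115.

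COL15A1 and COL18A1 encode the multiplexins, collagens with heparan or chondroitin sulfate chains that sit at the basement membranes of muscle fibres and vessels. COL15A1 stood at 23.1, 15.6 and 15.3 FPKM in libraries WC616, WC719 and WC921, against 12.7, 13.0 and 9.56 FPKM in RC4, RC5 and RC6. The breeds did not overlap, and limma gave a log2 fold change of 0.56 (SE 0.20) with an adjusted p of 0.305. DESeq2 put COL15A1 at 0.59 (adjusted p = 0.266), and at 0.45 with RC6 left out (adjusted p = 0.535). COL18A1, whose C-terminal fragment is endostatin, stood at 10.2, 9.14 and 7.90 FPKM in the Wagyu libraries and at 4.66, 3.59 and 8.15 FPKM in RC4, RC5 and RC6. Here RC6 lay among the Wagyu libraries, and RC4 and RC5 lay below them all. The log2 fold change of COL18A1 was 0.70 (SE 0.26), with an adjusted p of 0.310 in limma and 0.259 in DESeq2. DESeq2 without RC6 put it at 1.10, with an adjusted p of 0.000979.

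The other 5 basement membrane genes were low. COL7A1, the anchoring fibril collagen best known from skin, had 644 reads over the 6 libraries, and the type IV chains COL4A3, COL4A4, COL4A5 and COL4A6, which in kidney and other epithelia form further type IV molecules, had 67 to 203 reads. None of the 5 was without overlap between the breeds. Endothelial cells and pericytes also lay down type IV collagen. The 7 endothelial markers summed to 118 to 148 FPKM in Wagyu and 77.0 to 125 in Chinese Red Steppes, where RC4 overlapped with Wagyu. The 7 smooth muscle and pericyte markers summed to 214 to 388 FPKM in Wagyu and to 140, 144 and 358 FPKM in RC4, RC5 and RC6, so that RC6 alone made the breeds overlap. In each of these lists 6 of the 7 tested genes had a log2 fold change above 0, limma called 0, and no marker was at 0 in all libraries. Without RC6, DESeq2 called the smooth muscle genes ACTA2 (adjusted p = 0.00675) and TAGLN (adjusted p = 0.0207) higher in Wagyu, beside 1.21% of all tested genes. With RC6 it called neither (adjusted p = 0.277 and 0.872). No other gene of the smooth muscle and pericyte list was called by DESeq2, with or without RC6. The part of endothelial cells, smooth muscle and pericytes in the difference of COL4A1 and COL4A2 was not tested. In whole muscle, fewer cells of a type and less RNA per cell cannot be told apart.

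Among the fibrillar collagens, the chains of the main fibrils overlapped between the breeds, while COL5A1 and COL5A2 did not overlap between the breeds. Fibrillar collagens summed to 156 ± 45.9 FPKM (SD, n = 3) in Wagyu against 110 ± 46.3 FPKM (SD, n = 3) in Chinese Red Steppes. With RC6 left out the Chinese Red Steppes mean was 136 FPKM. WC616 held the most, 194 FPKM, and RC6 the least, 57.3 FPKM.

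COL3A1, the chain of the thin type III fibrils of endomysium and perimysium, stood at 72.4, 37.8 and 69.2 FPKM in libraries WC616, WC719 and WC921, against 70.3, 43.4 and 19.4 FPKM in RC4, RC5 and RC6. COL1A1, the α1 chain of type I collagen, stood at 51.9, 25.5 and 41.9 FPKM in the Wagyu libraries and at 32.2, 39.5 and 10.4 FPKM in the Chinese Red Steppes libraries. COL1A2, the α2 chain of the same molecule, stood at 41.2, 21.0 and 35.4 FPKM in Wagyu and at 22.6, 29.8 and 12.5 FPKM in Chinese Red Steppes. In all 3 genes RC6 was the lowest library, WC719 the next lowest and WC616 the highest, so the breeds overlapped throughout. RC6 was at 0.341 times the mean of RC4 and RC5 for COL3A1, 0.290 times for COL1A1 and 0.477 times for COL1A2. The log2 fold changes were 0.54 (SE 0.45) for COL3A1, 0.66 (SE 0.48) for COL1A1 and 0.59 (SE 0.35) for COL1A2, with adjusted p of 0.606, 0.554 and 0.465 in limma. With RC6 left out, the DESeq2 log2 fold changes were 0.04 for COL3A1, 0.12 for COL1A1 and 0.28 for COL1A2.

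Type V collagen copolymerizes with type I and limits the width of the fibrils. COL5A1, its α1 chain, stood at 7.63, 5.28 and 7.05 FPKM in libraries WC616, WC719 and WC921, against 4.80, 2.91 and 2.83 FPKM in RC4, RC5 and RC6. COL5A2, its α2 chain, stood at 5.60, 5.34 and 5.63 FPKM in Wagyu and at 3.97, 3.76 and 3.45 FPKM in Chinese Red Steppes. Neither gene overlapped between the breeds, and COL5A2 had the tightest values of the tested collagens, with the highest library only 1.63 times the lowest. limma gave log2 fold changes of 0.78 (SE 0.22, adjusted p = 0.232) for COL5A1 and 0.47 (SE 0.14, adjusted p = 0.256) for COL5A2. DESeq2 gave adjusted p of 0.0768 and 0.166, and called COL5A1 only with RC4 left out (adjusted p = 0.00127). COL5A3, the third type V chain, ranged from 9.08 to 13.5 FPKM in Wagyu and from 5.98 to 10.4 FPKM in Chinese Red Steppes, with a log2 fold change of 0.39 (SE 0.23, adjusted p = 0.469 in limma).

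The cartilage chains were nearly silent, with 18 reads over all libraries for COL2A1 and 6 for COL11A1. COL11A2 had 190 reads and COL27A1 303 reads, and neither differed without overlap. COL24A1 was above 0 only in WC616, at 0.563 FPKM, and its number of reads could not be fixed from this value. The sum of the fibroblast markers, like the main fibrillar chains, was lowest in RC6, though not every marker was. All 8 (such as DCN, LUM and PDGFRA) were detected, and they summed to 66.8 to 87.3 FPKM in Wagyu, to 68.4 and 74.3 FPKM in RC4 and RC5 and to 44.4 FPKM in RC6. Of the 7 that passed the filter, 6 had a log2 fold change above 0 and limma called 0. Without overlap, 2 of the 7 (LUM and DPT) were higher in Wagyu and 0 lower, beside 11.4% and 9.16% of all tested genes. The 5 tendon markers summed to 7.68 to 10.02 FPKM in Wagyu and 6.44 to 9.17 FPKM in Chinese Red Steppes. The part of fibroblast and tendon RNA in the fibrillar values was not tested.

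**Figure D2:**
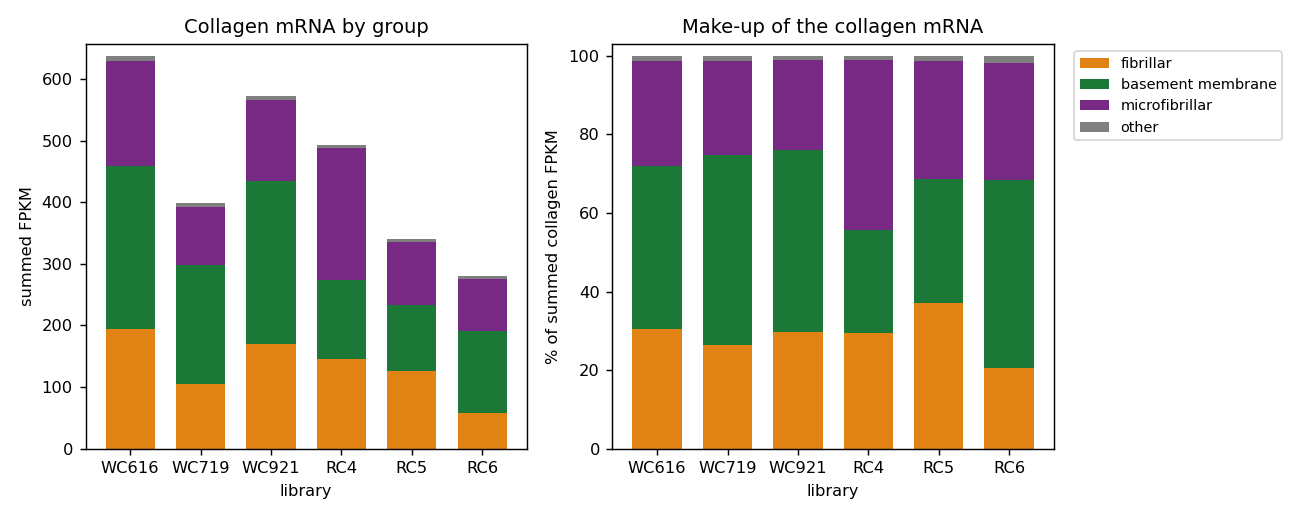
Summed FPKM of the 4 collagen groups in each library (left) and the same as a percentage of the summed collagen FPKM (right). Basement membrane collagens reach 193 to 266 FPKM in Wagyu and 107 to 134 FPKM in Chinese Red Steppes, and the microfibrillar share is 22.8% to 26.7% in Wagyu and 29.8% to 43.3% in Chinese Red Steppes.

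Microfibrillar collagens overlapped between the breeds in total but took a smaller share of the collagen mRNA in Wagyu. Their sum was 132 ± 37.7 FPKM (SD, n = 3) in Wagyu against 133 ± 70.2 FPKM (SD, n = 3) in Chinese Red Steppes. As a share of summed collagen FPKM they made up 26.7%, 23.8% and 22.8% in WC616, WC719 and WC921 and 43.3%, 29.9% and 29.8% in RC4, RC5 and RC6, without overlap. Since the shares add up to 100%, a larger share of basement membrane collagen lowers this one. Basement membrane collagens made up 45.5% ± 3.48 of the collagen FPKM (SD, n = 3) in Wagyu against 35.2% ± 11.3 (SD, n = 3) in Chinese Red Steppes, where RC6 alone reached 47.9% and RC4 and RC5 lay at 26.2% and 31.5%.

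Type VI collagen is built from α1, α2 and α3 chains, encoded by COL6A1, COL6A2 and COL6A3, and in humans its loss causes congenital muscular dystrophies. COL6A1 stood at 75.5, 45.2 and 59.3 FPKM in libraries WC616, WC719 and WC921, against 103, 47.3 and 40.0 FPKM in RC4, RC5 and RC6. COL6A2 stood at 70.9, 36.7 and 54.1 FPKM in Wagyu and at 96.6, 44.7 and 37.7 FPKM in Chinese Red Steppes. The breeds overlapped widely, with RC4 highest for both genes. The log2 fold change was 0.02 (SE 0.35) for COL6A1, which turned below 0 with median-of-ratios or quantile scaling, and -0.07 (SE 0.37) for COL6A2, with adjusted p of 0.988 and 0.949 in limma. Their 95% intervals, -0.81 to 0.84 and -0.94 to 0.80, leave room for differences as large as those of other collagens. COL6A3, the largest chain, had another pattern, with 23.4, 12.7 and 17.2 FPKM in Wagyu and 13.1, 9.55 and 5.75 FPKM in Chinese Red Steppes. RC4 lay just above WC719, so the breeds overlapped by that pair only. The log2 fold change of COL6A3 was 0.87 (SE 0.31), with an adjusted p of 0.297 in limma and 0.163 in DESeq2, which called it only with RC4 left out (adjusted p = 0.0205). The DESeq2 log2 fold change of COL6A3 was 0.89, and 0.62 with RC6 left out (adjusted p = 0.413). COL6A6, an α chain that in humans can take the place of α3, had 139 reads in all.

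The ratio of chains within a library does not depend on how libraries are scaled, and it set COL6A3 apart. COL6A3 was at 0.309, 0.282 and 0.290 times the FPKM of COL6A1 in WC616, WC719 and WC921 and at 0.127, 0.202 and 0.144 times in RC4, RC5 and RC6. The mean was 0.294 ± 0.0143 (SD, n = 3) in Wagyu against 0.158 ± 0.0393 (SD, n = 3) in Chinese Red Steppes, without overlap, and on the log2 scale the ratio was higher by 0.93 in Wagyu. With any library left out this difference stayed between 0.78 and 1.12. COL6A1 and COL6A2 themselves kept close together, at a ratio of 1.07, 1.23 and 1.10 in Wagyu and of 1.06, 1.06 and 1.06 in Chinese Red Steppes, where the lowest Wagyu value lay just above the highest Chinese Red Steppes value.

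The ratios of partner chains of types I and IV overlapped between the breeds. COL4A1 to COL4A2 was 1.22, 1.33 and 1.26 in Wagyu and 1.12, 1.43 and 1.41 in Chinese Red Steppes. COL1A1 to COL1A2 was 1.26, 1.22 and 1.18 in Wagyu and 1.42, 1.32 and 0.831 in Chinese Red Steppes, so RC6 alone had less COL1A1 than COL1A2 mRNA. COL3A1 to COL1A1 ran from 1.40 to 1.65 in Wagyu and from 1.10 to 2.19 in Chinese Red Steppes, and the breeds overlapped in all 3 of these ratios. The ratio of the main type IV to the main type VI chain, COL4A1 to COL6A1, was chosen after the values were seen. It was 1.68, 2.10 and 2.25 in Wagyu and 0.566, 1.10 and 1.68 in Chinese Red Steppes, where RC6 lay just under the lowest Wagyu library. COL4A1 to COL1A1, chosen in the same way, overlapped widely, at 2.45 to 3.71 in Wagyu and 1.32 to 6.46 in Chinese Red Steppes.

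**Figure D3:**
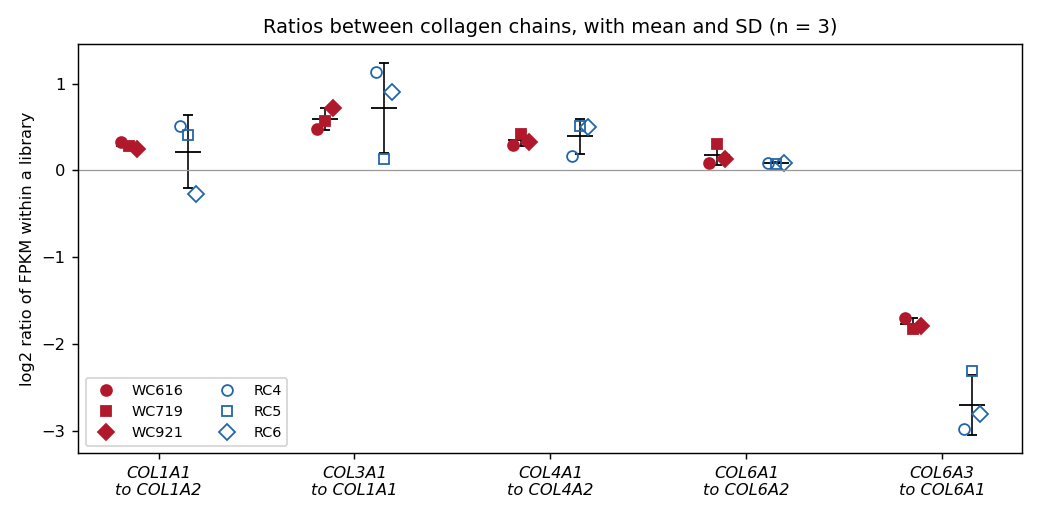
log2 ratio of FPKM between collagen chains of the same library (points), with the mean and SD of each breed (bars, n = 3). COL6A3 to COL6A1 separates the breeds, with means of -1.77 in Wagyu and -2.69 in Chinese Red Steppes, while COL1A1 to COL1A2, COL3A1 to COL1A1 and COL4A1 to COL4A2 overlap.

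The summed level of Schwann cell markers was lower in Wagyu, while fat cell markers were mixed. The 5 Schwann cell markers summed to 9.12 to 12.7 FPKM in Wagyu and to 36.6, 25.0 and 18.7 FPKM in RC4, RC5 and RC6, without overlap. limma called 0 of them, and DESeq2 called MBP, a myelin protein gene, lower in Wagyu with RC6 (adjusted p = 0.00807) and without it (adjusted p = 0.00828). The 7 fat cell markers summed to 52.5 to 62.7 FPKM in Wagyu and 67.6 to 70.2 FPKM in Chinese Red Steppes, but most of that sum was PLIN4, with means of 38.6 and 49.7 FPKM. ADIPOQ and CIDEC, both under the filter with 167 and 104 reads, had mean FPKM 2.17 and 3.26 times as high in Wagyu, CIDEC without overlap. PLIN was at 1.25 times the Chinese Red Steppes mean, but FABP4 was at 0.616 times and HSL at 0.933 times. The leptin gene (OB) had only 2 reads in all. Of the 4 genes past the filter, 1 had a log2 fold change above 0, with a median of -0.22. limma and DESeq2 called 0 of the 7. No marker of either list was at 0 in all libraries. RC4, the library with the most Schwann cell marker RNA, also had the most COL6A1, COL6A2 and COL6A6. The part of these cells in the type VI values was not tested.

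Among the other collagens, 3 of 18 passed the filter and 13 had under 100 reads over all libraries. The summed level of all 18 was 6.56 ± 1.31 FPKM (SD, n = 3) in Wagyu against 4.87 ± 0.322 FPKM (SD, n = 3) in Chinese Red Steppes, without overlap. COL16A1, a fibril-associated collagen, stood at 2.15, 1.08 and 1.57 FPKM in libraries WC616, WC719 and WC921, against 0.588, 1.09 and 0.599 FPKM in RC4, RC5 and RC6. RC5 lay level with WC719, and limma gave a log2 fold change of 0.56 (SE 0.21) with an adjusted p of 0.315. COL14A1, a fibril-associated collagen of tendon and perimysium, stood at 1.56, 0.878 and 1.36 FPKM in Wagyu and at 1.89, 1.16 and 0.586 FPKM in Chinese Red Steppes, and its log2 fold change of 0.07 (SE 0.25, adjusted p = 0.922 in limma) turned below 0 without WC616 or without RC6.

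COL23A1, a transmembrane collagen, showed the largest gap between RC6 and its breed among the tested collagens. It stood at 2.02, 1.01 and 1.21 FPKM in Wagyu and at 0.313, 0.200 and 3.18 FPKM in RC4, RC5 and RC6, so RC6 was at 12.4 times the mean of RC4 and RC5. With RC6 the log2 fold change was 0.34 (SE 0.46, adjusted p = 0.769 in limma). When RC6 was dropped, the DESeq2 value rose to 2.43, with an adjusted p of 0.0299. That fit rested on 108 reads in the Wagyu libraries and on only 8 and 5 reads in RC4 and RC5. RC6 held 78 of the 199 reads over all 6 libraries.

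**Figure D4:**
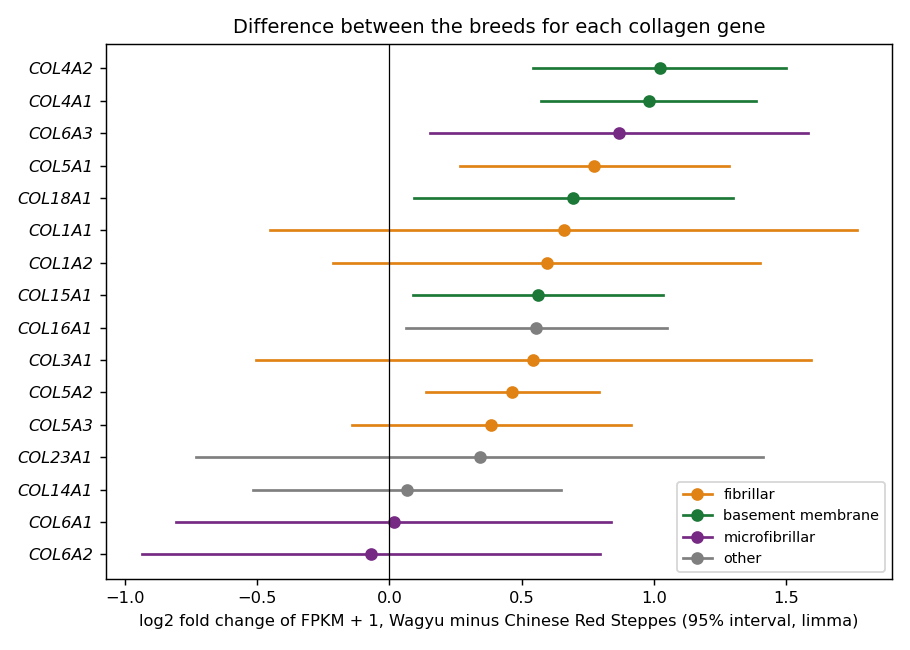
log2 fold change of FPKM + 1, Wagyu minus Chinese Red Steppes, of the 16 tested collagens (points) with 95% intervals from limma (lines), in order of size. COL4A2 and COL4A1 lie highest at 1.02 and 0.98, COL6A1 and COL6A2 lie at 0.02 and -0.07, and no gene passed an adjusted p of 0.05.

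The network collagen of endothelium and cornea, type VIII, gave opposite values for its chains. COL8A1 lay under the filter with 50, 91 and 93 reads in WC616, WC719 and WC921 and 33, 26 and 21 reads in RC4, RC5 and RC6. The breeds did not overlap, and DESeq2 gave a log2 fold change of 1.48 with an adjusted p of 0.0170, where edgeR gave an adjusted p of 0.166. The DESeq2 call held only with WC616 or RC4 left out and was lost with WC719, WC921, RC5 or RC6 left out, with adjusted p of 0.0882 to 0.258. COL8A2 had 0, 4 and 1 reads in Wagyu and 30, 10 and 5 reads in Chinese Red Steppes, which did not overlap either, but DESeq2 did not call it (adjusted p = 0.112). Both genes were singled out after their values were seen, and no test of the difference between them was run.

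Of the 26 collagens under the filter, COL8A1 was the only member higher and COL8A2 the only member lower in every Wagyu library, and 24 overlapped. The share of all genes under the filter without overlap was not worked out, so these counts are a description only. Their mean FPKM was at most 0.742, while the lowest tested collagen, COL16A1, stood at 1.18. The fibril-associated COL12A1 had 346 reads, and the transmembrane COL13A1, which is known from the neuromuscular junction, had 74. COL22A1, a collagen of the muscle to tendon junction, had 51 reads and COL20A1 had 83. Under 10 recovered reads in all were left for 11 members, among them COL9A2, COL9A3, COL10A1, COL17A1 and COL25A1. COL24A1 is counted among the 11, although its number of reads could not be fixed and may be higher. COL9A1 had 0 reads in every library, which allows up to 3 reads per library. DESeq2 gave no adjusted p for any of these 11.

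The genes that fold, trim, bind and remove collagen were read from 5 lists. In limma 0 genes of any list passed the threshold. Folding and secretion genes had a log2 fold change above 0 in 18 of 23 tested genes, with a median of 0.28. By the smallest p, the leading genes were COLGALT1, which adds galactose to hydroxylysine (0.57, SE 0.16), SEC24D, a coat protein of the vesicles that carry procollagen (0.69, SE 0.20), the lysyl hydroxylase PLOD1 (0.51, SE 0.15) and the prolyl isomerase PPIB (0.41, SE 0.13). PLOD1 stood at 20.0, 17.3 and 17.8 FPKM in libraries WC616, WC719 and WC921, against 14.6, 12.1 and 11.1 FPKM in RC4, RC5 and RC6. Of the 23 tested genes, 7 were higher without overlap and 1, P3H4, a partner of the lysyl hydroxylases, was lower, beside 11.4% and 9.16% of all tested genes. SEC24D passed the filter only through its Wagyu level and is among the 7. DESeq2 called 0 of the 26 listed genes, with and without RC6.

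Cleavage and crosslinking genes had log2 fold changes above 0 in 7 of 8 tested genes, with a median of 0.64, close to that of the collagens. Of these 8, 4 were higher without overlap and 0 lower, beside 11.4% and 9.16% of all tested genes. DESeq2 called 2 of 10 higher, beside 1.26% of all genes it tested. LOXL2, a lysyl oxidase known to crosslink type IV collagen, stood at 7.18, 5.55 and 5.24 FPKM in Wagyu and at 3.23, 1.98 and 2.82 FPKM in Chinese Red Steppes. LOXL1, which acts mainly on elastic fibres, stood at 10.01, 6.01 and 5.29 FPKM in Wagyu and at 4.06, 1.15 and 1.60 FPKM in Chinese Red Steppes. Neither overlapped between the breeds, and DESeq2 called both, with adjusted p of 0.00712 for LOXL2 and 0.0227 for LOXL1. Without RC6 the call of LOXL2 held (adjusted p = 0.0175) and that of LOXL1 was lost (adjusted p = 0.121). PCOLCE, the enhancer of C-propeptide removal (0.90, SE 0.31), and LOXL4 (0.57, SE 0.23) were also higher in every Wagyu library, without a call by any of the 3 tools, and LOXL4 passed the filter only through its Wagyu level. LOX itself had only 61 reads over the 6 libraries.

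Among collagen receptors, 5 of 5 tested genes had a log2 fold change above 0, with a median of 0.71. Of these 5, 3 were higher without overlap and 0 lower, beside 11.4% and 9.16% of all tested genes. DESeq2 called 2 of 9 higher, beside 1.26% of all genes it tested. DDR1, a tyrosine kinase activated by collagen, stood at 11.0, 17.5 and 19.1 FPKM in Wagyu and at 8.28, 5.03 and 5.11 FPKM in Chinese Red Steppes. CD44, a hyaluronan receptor that also binds collagen, stood at 5.24, 5.01 and 3.36 FPKM in Wagyu and at 1.71, 1.41 and 1.89 FPKM in Chinese Red Steppes. Both were without overlap and called by DESeq2, with adjusted p of 0.00133 for DDR1 and 0.000321 for CD44, and both calls held without RC6. MRC2, which takes up collagen fragments, was higher without overlap too (0.56, SE 0.21), and CSPG4 stood at 0.71 (SE 0.31) with overlap.

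Breakdown genes had log2 fold changes above 0 in 8 of 8 tested genes but a median of only 0.18. Of these 8, 1 was higher without overlap and 0 lower, beside 11.4% and 9.16% of all tested genes. DESeq2 called 1 of 11 higher, beside 1.26% of all genes it tested. MMP15, a membrane-bound metalloproteinase, was at 15.3, 12.6 and 10.6 FPKM in Wagyu and 7.82, 4.15 and 7.15 FPKM in Chinese Red Steppes, without overlap, and DESeq2 called it (adjusted p = 0.0357, or 0.0399 without RC6). MMP2, a gelatinase that cuts type IV collagen, had a log2 fold change of 0.64 (SE 0.22) with overlap. The interstitial collagenases MMP1, MMP8 and MMP13 had 0 reads in every library. Genes of the signals that induce collagen had log2 fold changes above 0 in 15 of 15 tested genes, with a median of 0.39. Of these 15, 4 were higher without overlap and 0 lower, against the same shares of all tested genes. DESeq2 called 2 of 16 higher, or 4 of 16 with RC6 left out, beside 1.26% and 1.21% of all genes it tested. PDGFRB, the PDGF receptor of pericytes and fibroblasts, stood at 18.7, 12.6 and 13.8 FPKM in Wagyu and at 9.01, 6.07 and 9.12 FPKM in Chinese Red Steppes, and SMAD7, a target and inhibitor of TGF-β signalling, at 5.80, 17.8 and 11.7 and at 3.71, 4.04 and 5.41 FPKM. Neither overlapped, and DESeq2 called both (adjusted p = 0.0444 and 0.0184), also without RC6. PDGFB, a ligand of PDGFRB, and CTGF, a growth factor of connective tissue, were called higher only without RC6 (DESeq2 adjusted p = 0.000601 and 0.0221) and are named after their values were seen. SMAD3 (0.50, SE 0.17) and PDGFC (0.60, SE 0.24) were also without overlap, and the ligand genes TGFB1, TGFB2 and TGFB3 overlapped.

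**Figure D5:**
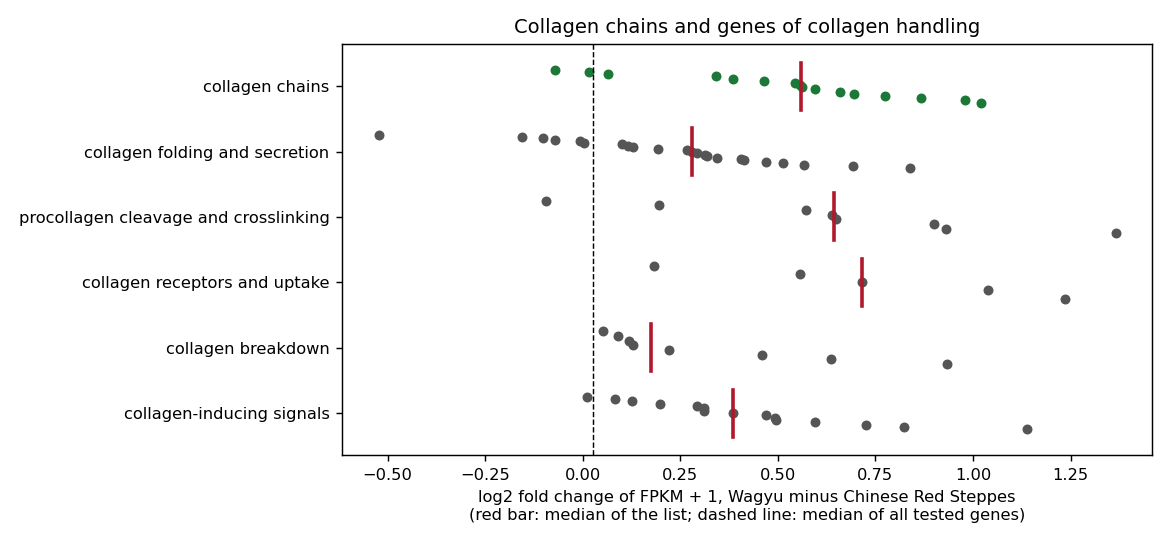
log2 fold change of FPKM + 1, Wagyu minus Chinese Red Steppes, of the tested collagens (green) and of tested genes in 5 lists (grey), 1 point per gene, with the list medians (red bars) and the median of all tested genes (dashed line, 0.03). The medians run from 0.18 for collagen breakdown to 0.71 for collagen receptors, and that of the collagens is 0.56.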

How the data were processed

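The authors deposited FPKM of 21972 genes for each of 6 libraries, and raw read counts of 205 genes. Reads had been cleared of adaptors and low quality. TopHat (v2.0.6) and RPKM stand in the methods and HISAT2 and UMD3.1 in the submitters' processing notes, and which made the values was not settled. Strand and shared reads are not described, so values of overlapping genes are uncertain. The second table also holds the authors' breed means, fold changes and false discovery rates, which were not used.

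Reads per library and gene were worked back from genes present in both tables. All 16770 genes above 0 gave whole reads (tolerance 1e-06 relative to the gene's highest read count), equal to the deposited counts for 203 of 205 genes. limma 3.58.1 (lmFit, eBayes with trend, R 4.3.3) used log2(FPKM + 1), pseudocount 1, and genes averaging 1 FPKM or more. edgeR 4.0.16 (quasi-likelihood) and DESeq2 1.42.0 used the recovered reads. Scripts were checked on simulated data. Tables were made with Python 3.11.15, pandas 2.3.3 and statsmodels 0.14.6, which gave the Wilson intervals. P-values measure the spread between animals of 1 sire per breed. Alternatives were another pseudocount, filter, scaling and variance model, and each library left out.

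Collagens and lists were chosen with earlier results of these data known. Values per library are given for the 3 most abundant members of each group, members with an unadjusted p under 0.05 or no overlap, and up to 4 genes of each list with the smallest p. All 42 collagen symbols were found in the RefSeq table, whose assembly differs, so no coordinates are given. COL6A5 and COL21A1 were not analysed here.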

Additional observations from a re-analysis of the deposited data

How the results depend on the processing

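No collagen passed limma under any alternative: another pseudocount, filter, scaling or variance model, or any library left out. edgeR called 0 as well, with all libraries and without RC6. DESeq2 called 3 collagens, and 2, 2, 0, 5, 1 and 4 with WC616, WC719, WC921, RC4, RC5 and RC6 left out. Leaving out libraries in the count tests was chosen after seeing the data. Over all genes limma called 2, against 1 with pseudocount 0.1, 0 with no filter, 0 at a mean FPKM of at least 5, 5 with equal sums, 4 without the trend and 0 to 3 with a library left out. edgeR called 8, or 14 without RC6, and DESeq2 237, or 240, 107, 97, 487, 127 and 242 in the order above.

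The median log2 fold change of the collagens was above 0 under every alternative, at 0.40 to 0.70 in limma and 0.34 to 0.73 in DESeq2 with a library left out. The summed FPKM of fibrillar, basement membrane and other collagens, and the ratios COL6A3 to COL6A1 and COL6A1 to COL6A2, kept their direction. The fibrillar difference shrank with RC6 left out, when the Chinese Red Steppes mean rose from 110 to 136 FPKM, against 156 FPKM in Wagyu. The small differences of the other sums and ratios changed sign with a library left out, over -0.20 to 0.48 (log2) for the microfibrillar sum, -0.17 to 0.22 for COL1A1 to COL1A2, -0.42 to 0.07 for COL3A1 to COL1A1 and -0.16 to 0.02 for COL4A1 to COL4A2. Of the single genes, COL6A1 turned to -0.0089 with median-of-ratios scaling, -0.0801 with quantile scaling, -0.108 in edgeR and -0.104 in DESeq2, and ran from -0.246 to 0.425 with a library left out. Without RC6 it was at -0.36 in edgeR, and DESeq2 gave -0.335, -0.0946, -0.276 and -0.359 without WC616, WC921, RC5 and RC6. COL6A2 ran from -0.333 to 0.335 in limma with a library left out, and was at 0.0689 and 0.386 in DESeq2 without WC719 and RC4. COL14A1 ran from -0.153 to 0.279, with -0.305 in edgeR without RC6 and -0.168, -0.0159 and -0.303 in DESeq2 without WC616, WC921 and RC6. COL23A1 was at -0.178, -0.245 and -0.293 in DESeq2 without WC616, RC4 and RC5. The cause was not tested. No paired analysis was possible because the breeds share no replicate numbers. With 3 animals per breed, an exact permutation test of a single value cannot go below 0.1, and genes with few reads carry wide counting error.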
